A study of Mus musculus with 6 samples.

Results

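Goblet cells are the mucus-secreting cells of the intestinal epithelium. Their product is a gel built on the secreted mucin MUC2, which is folded and cross-linked in the endoplasmic reticulum (ER), heavily O-glycosylated in the Golgi and unpacked in the lumen together with smaller secreted proteins. Membrane mucins form a separate glycoprotein layer on the apical surface of the epithelium, and are made by absorptive cells as well as by goblet cells. The 9 mRNAs described here encode the gel-forming mucin Muc2, the membrane mucins Muc4 and Muc13, the gel-associated proteins Clca1, Fcgbp and Zg16, the trefoil factor Tff3, the ER protein Agr2 and the small secreted protein Spink4. They were chosen by gene symbol, and all 9 were found among the 18437 mRNAs of the data. Of these names, 7 are on the list of goblet cell markers used here, whereas Muc4 and Muc13 are not.

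The data were Ribo-seq libraries, in which mRNA fragments protected by ribosomes are sequenced, from wild-type (WT) C57BL/6J mice, with tissue labels of kidney, small intestine, brain, lung, heart and colon. All animals were 4 weeks old and received no treatment, and each tissue was represented by 1 library, so no difference below has a replicate check and no test was made. Ribosome density is given as RPKM, which divides an mRNA's reads on its coding sequence (CDS) by CDS length and by the library's total. The product of RPKM and CDS length was a whole number of reads, to within 0.001 of a read, for 100% of values, and the 95% intervals below are exact Poisson or binomial intervals of those reads. They cover counting error only. Reads per library ranged from 4504853 to 10635031. Ribosome density in a whole tissue cannot tell fewer goblet cells from less mRNA per cell, nor either from fewer ribosomes per mRNA.

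The label of a library and its marker mRNAs did not always go together, so every library is called here by its label. Of 13 markers of small intestinal enterocytes, 12 were highest in the library labelled brain. All 7 Paneth cell markers were highest there too. Of 13 colonocyte markers, 10 were highest in the library labelled kidney. So were 11 of 12 goblet cell markers, but 7 of those 12 are among the 9 mRNAs described here and are no separate evidence. Of 10 kidney markers, 9 were highest in the library labelled colon, and all 9 brain markers were highest in that labelled small intestine. The exception among the kidney markers was Klk1, which is also on the list of mucus and lumen proteins used here. It was at 17498 RPKM under the label kidney, 13510 under colon and 3366 under brain. The libraries labelled kidney and brain are therefore the pair in which the intestinal mRNAs lay. In the library labelled brain, kidney markers were also present, with Umod at 449 RPKM or 2.73% of its level in the library labelled colon. In the library labelled kidney Umod was at 10.9 RPKM, and in that labelled brain the 9 brain markers summed to 43.0 RPKM. The mucus mRNAs were at 6.73 RPKM or less in that library labelled colon.

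The 9 mucus mRNAs together held 8.92% of all reads on CDSs under the label kidney (8.90 to 8.94, a 95% Wilson interval) and 4.68% in that labelled brain (4.67 to 4.70). That is 676613 of 7583374 reads and 498096 of 10635031 reads. In the other 4 libraries their share was 0.0992% under the label heart, 0.0567% under small intestine, 0.0195% under lung and 0.00531% under colon. Among all mRNAs of a library ranked by RPKM, 8 of the 9 were in the top 1000 under the labels kidney and brain, and Muc4 was the exception in both. In the top 100 were 6 under the label kidney and 4 under the label brain.

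**Figure D1:**
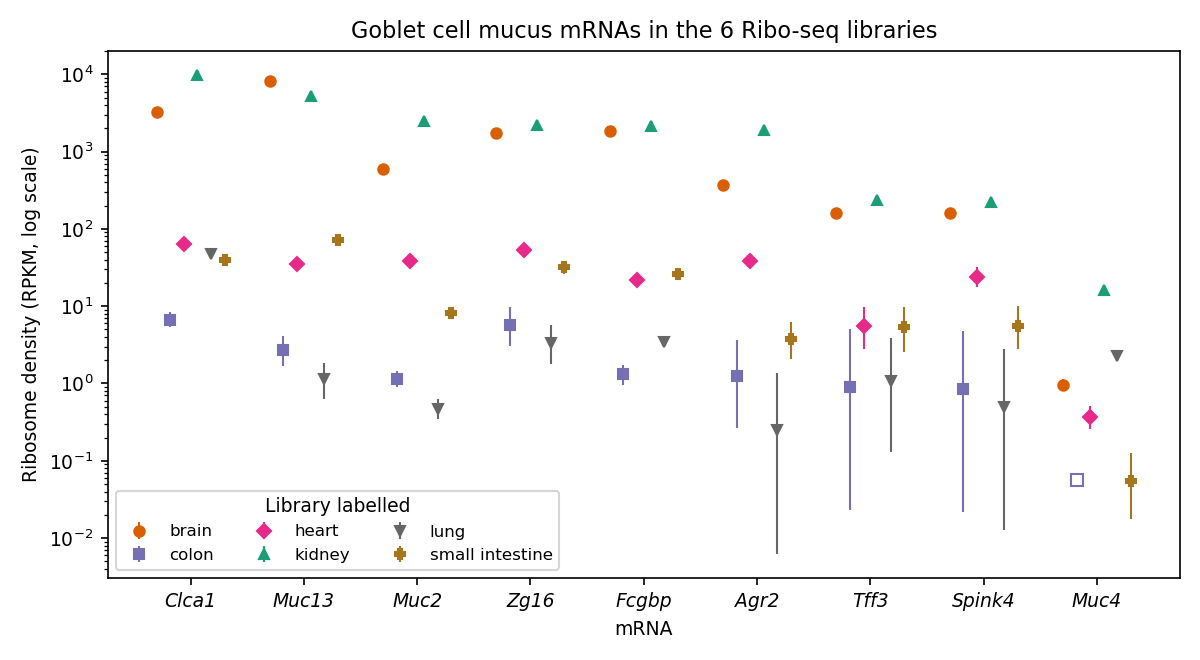
RPKM on a log scale (vertical axis) of the 9 mucus mRNAs (horizontal axis) in each of the 6 libraries, named by label, with 95% Poisson intervals of the reads as bars. The open square marks Muc4 in the library labelled colon, which had no reads, at the RPKM of 3 reads. Apart from Muc4, the libraries labelled kidney and brain lie above the others for every mRNA.

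Muc2 is the structural mucin of the intestinal gel and had the most reads of the 9 in the library labelled kidney. Its density was 2486 RPKM in the library labelled kidney (258849 reads) and 596 RPKM in that labelled brain (87004 reads). It was 38.3 RPKM under the label heart, 8.20 under small intestine, 1.15 under colon and 0.471 under lung. Only the first of these libraries had Muc2 among its top 100 mRNAs, at place 21, whereas Muc2 was at place 192 in the library labelled brain. The gene lies on chromosome 7 of GRCm39 (chr7:141276583-141308430, plus strand), and its mRNA has 48 exons. Its CDS of 13731 bases, with the stop codon, is the longest of the 9.

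The Muc2 CDS carries in its codons the design of a mucin, which is a long domain of Ser, Thr and Pro, where O-glycans attach to Ser and Thr, between Cys-rich ends that form disulfide bonds. Ser, Thr and Pro codons make up 54.2% of it, against a median of 18.7% over 18154 CDSs. The first of the 3 stretches below, each of 32 codons, is the first of those in which all 32 codons are of this kind, at chr7:141291172-141291267. The second is the first stretch in which no window of 29 nt, the length of a ribosome footprint, is unique among all CDSs (chr7:141291982-141292077). The third is the stretch richest in Cys codons, with 7, at codons 1059 to 1090, which spans an intron. All are on the plus strand and written 5′ to 3′, with Ser, Thr and Pro codons in capitals in the first 2 and Cys codons in capitals in the third.
Muc2 codons 1448 to 1479: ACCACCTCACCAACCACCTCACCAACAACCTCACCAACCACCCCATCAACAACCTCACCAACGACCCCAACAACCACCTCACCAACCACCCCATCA
Muc2 codons 1718 to 1749: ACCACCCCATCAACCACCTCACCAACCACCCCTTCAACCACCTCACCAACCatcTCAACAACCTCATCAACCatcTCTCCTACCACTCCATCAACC
Muc2 codons 1059 to 1090: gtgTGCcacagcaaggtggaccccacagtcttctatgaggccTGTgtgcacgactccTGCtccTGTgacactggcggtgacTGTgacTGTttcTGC

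The repeats bear on how the densities can be read. Of the 29-nt windows of Muc2, 74.1% occur once in all CDSs, and all others recur within Muc2 itself. The shares for Muc4 and Muc13 were 73.3% and 73.1%, with the other windows again repeated within the same gene. In Fcgbp, 84.0% of windows were unique and 16.0% were shared with another gene, the near copy Fcgbpl1, which was itself at 1.55 RPKM under the label kidney and 0.656 under brain. Clca1, Zg16, Tff3, Agr2 and Spink4 had only unique windows. Where multi-mapped reads were left out, as the study's Methods state for its macrophage libraries, the densities of the mucins are too low. The loss equals the share of repeated windows, in every library alike, only if reads are spread evenly along the CDS. The files give no position within the CDS, so this could not be checked.

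**Figure D2:**
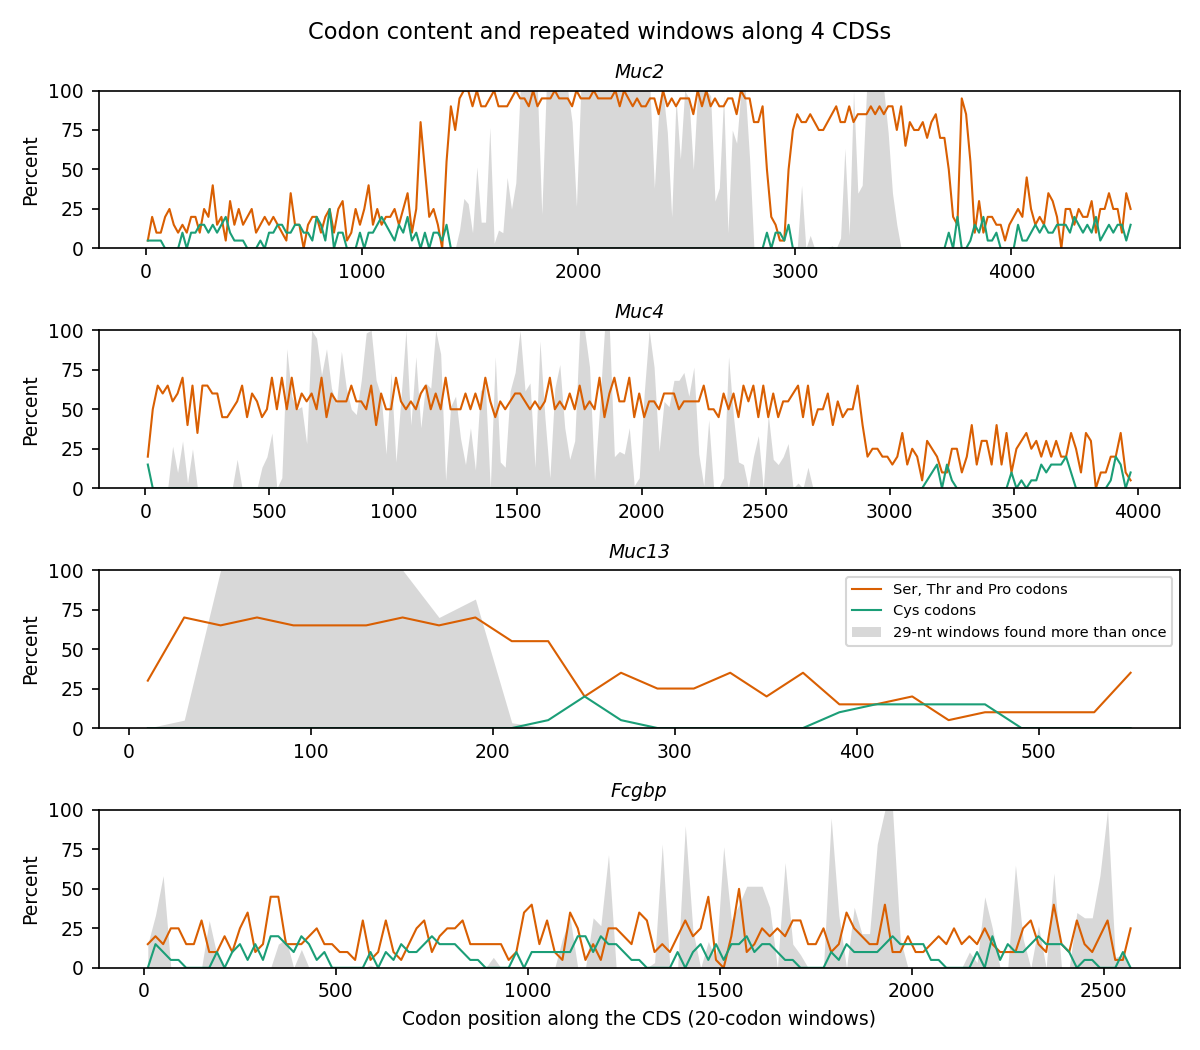
Percent of codons for Ser, Thr and Pro (orange) and for Cys (green) in consecutive windows of 20 codons along the CDSs of Muc2, Muc4, Muc13 and Fcgbp, with the percent of 29-nt windows found more than once in all CDSs in gray. In the 3 mucins the gray areas lie in the part rich in Ser, Thr and Pro, and Cys codons lie mostly outside it.

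Muc13, a short membrane mucin of the intestinal surface, had the opposite order between the pair of libraries. It was at 8294 RPKM in the library labelled brain (151635 reads) and 5230 RPKM in that labelled kidney (68180 reads), at places 10 and 9 of those libraries. It had 71.0 RPKM under the label small intestine, 34.9 under heart, 2.71 under colon and 1.13 under lung. Muc13 was the only 1 of the 9 with its highest density under the label brain, and this order was turned when both libraries were scaled on pan-epithelial genes, as given below. The CDS has 573 codons, of which 38.0% are for Ser, Thr and Pro. The 32 codons with the most of them, in capitals, hold 24 and lie within 1 exon at chr16:33619320-33619415, plus strand.
Muc13 codons 23 to 54: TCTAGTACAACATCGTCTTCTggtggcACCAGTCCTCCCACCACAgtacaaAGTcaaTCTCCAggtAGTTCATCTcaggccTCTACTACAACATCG

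Muc4, a large membrane mucin of many epithelia, was the lowest of the 9 in both libraries. Its density was 16.3 RPKM in the library labelled kidney (1479 reads), 2.28 under the label lung (211 reads), 0.966 under brain (123 reads), 0.368 under heart (36 reads) and 0.0546 under small intestine (5 reads). It was not listed under the label colon, where 3 reads would have given 0.0556 RPKM. Muc4 was therefore the only 1 of the 9 that was higher under the label lung than under the label brain. Its CDS is 46.0% Ser, Thr and Pro codons. The gene overlaps Muc20 on the other strand, but Muc20 had at most 20 reads in any library.

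Clca1, a secreted protease of the mucus gel, had the highest density of the 9 in the library labelled kidney, at place 5 of all its mRNAs. It was at 9861 RPKM there (204821 reads) and at 3237 RPKM in the library labelled brain (94292 reads). It had 64.0 RPKM under the label heart, 47.7 under lung, 39.9 under small intestine and 6.73 under colon. Clca1 stood out under the label lung, where 1011 of the 1508 reads on the 9 mRNAs were its own. The cause was not tested.

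Clca1 lies in a cluster of 7 Clca genes over 369767 bases of chromosome 3 (chr3:144435438-144805204), and its neighbors, picked for comparison with their values in view, differed from it. Clca4b was at 758 RPKM in the library labelled brain and 9.12 in that labelled kidney, and Clca4a at 196 and 33.9. Clca3b was at 352 and 381 RPKM. Clca4b and Clca4a were thus higher under the label brain, and Clca1 under the label kidney. Beside Muc2 on chromosome 7 lie 3 other gel-forming mucin genes, of which Muc5ac and Muc6 had at most 11 reads in any library. Muc5b, the mucin of the airways, was at 11.9 RPKM under the label lung and at most 0.200 elsewhere.

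Fcgbp and Zg16 are both secreted into the gel, Fcgbp as a large Cys-rich protein with von Willebrand D domains and Zg16 as a small lectin that binds bacterial cell walls. Fcgbp was at 2152 RPKM in the library labelled kidney (126450 reads) and 1856 in that labelled brain (152963 reads). It was at 26.0 RPKM under the label small intestine, 22.1 under heart, 3.41 under lung and 1.32 under colon. Of its codons, 8.44% were for Cys, against a median of 2.04% over all CDSs. Zg16 was at 2226 RPKM in the library labelled kidney (8459 reads) and 1724 in that labelled brain (9185 reads). It was at 53.7 RPKM under the label heart, 31.9 under small intestine, 5.76 under colon and 3.36 under lung. Both mRNAs were within 2-fold between the pair of libraries as deposited, and with pan-epithelial scaling Fcgbp was 1.94-fold and Zg16 2.16-fold higher under the label kidney. In the library labelled kidney Fcgbp and Zg16 exchange places when RPKM is computed per unique window.

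Agr2 is a protein disulfide isomerase of the ER that is needed for Muc2 to be made. It was at 1884 RPKM in the library labelled kidney (7502 reads) and 366 in that labelled brain (2042 reads). It was at 38.2 RPKM under the label heart, 3.74 under small intestine, 1.27 under colon from 3 reads and 0.246 under lung from 1 read. The last 60 bases of its CDS, which span an intron on chromosome 12, are shown with the last 4 sense codons in capitals, where the signal lies that keeps the protein in the ER.
Agr2 end of CDS: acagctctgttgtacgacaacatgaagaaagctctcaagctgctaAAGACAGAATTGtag

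Tff3 and Spink4 are small secreted proteins held by disulfide bonds, Tff3 a trefoil factor of mucosal repair and Spink4 a member of the Kazal type protease inhibitor family. Tff3 was at 237 RPKM in the library labelled kidney (437 reads) and 160 in that labelled brain (414 reads). It was at 5.53 RPKM under the label heart (11 reads), 5.38 under small intestine (10 reads), 1.06 under lung (2 reads) and 0.914 under colon (1 read). Spink4 was at 223 RPKM in the library labelled kidney (436 reads) and 160 in that labelled brain (438 reads). It was at 24.2 RPKM under the label heart (51 reads), 5.58 under small intestine (11 reads), 0.860 under colon (1 read) and 0.501 under lung (1 read). These are the shortest CDSs of the 9 and the ones with the fewest reads in the pair of libraries apart from Muc4 under the label brain, so their intervals are wide.

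The CDSs of both are shown whole, with Cys codons in capitals. Tff3, on chromosome 17 and the minus strand, has 7 Cys codons of 81, or 8.64%. Spink4, on chromosome 4 and the plus strand, has 6 of 86, or 6.98%. Only Fcgbp had a like share among the other members.
Tff3 CDS: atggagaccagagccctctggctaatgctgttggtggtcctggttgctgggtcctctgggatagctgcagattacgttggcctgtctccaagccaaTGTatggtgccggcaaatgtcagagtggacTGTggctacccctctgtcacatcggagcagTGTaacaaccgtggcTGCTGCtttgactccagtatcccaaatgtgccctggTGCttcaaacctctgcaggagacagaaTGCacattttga
Spink4 CDS: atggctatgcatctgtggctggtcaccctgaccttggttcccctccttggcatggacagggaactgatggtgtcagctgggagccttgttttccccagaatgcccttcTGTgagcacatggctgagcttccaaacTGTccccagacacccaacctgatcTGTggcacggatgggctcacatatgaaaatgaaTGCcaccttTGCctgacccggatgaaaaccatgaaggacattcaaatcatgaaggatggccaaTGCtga

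Between the libraries labelled kidney and brain, 8 of the 9 mucus mRNAs were higher under the label kidney, where 48.9% of 12273 mRNAs with RPKM over 1 in either library were. The differences were uneven. Muc4 was 16.9-fold higher (95% counting interval 14.0 to 20.4), Agr2 5.15-fold (4.91 to 5.41), Muc2 4.17-fold (4.14 to 4.20) and Clca1 3.05-fold (3.02 to 3.07). Tff3 was 1.48-fold higher (1.29 to 1.70), Spink4 1.40-fold (1.22 to 1.60), Zg16 1.29-fold (1.25 to 1.33) and Fcgbp 1.16-fold (1.15 to 1.17). The intervals of Tff3, Spink4 and Zg16 all overlapped one another. Muc13 was 1.59-fold higher under the label brain (1.57 to 1.60), an order that was turned with pan-epithelial scaling.

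Past 2-fold toward the label kidney were 4 of the 9, against 31.7% of all mRNAs, and 0 of the 9 toward the label brain, against 27.4%. Of all 6 libraries, the highest density was under the label kidney for 8 of the 9, against 8.75% of 15238 mRNAs, and under the label brain for 1, against 15% of all mRNAs. Among mRNAs with RPKM over 10, the share past 2-fold toward the label kidney was 18.2%, and toward the label brain 32.7%.

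The scaling of the library labelled kidney moved every fold by the same factor. A single mRNA, Kri1, took 22.1% of its reads and 2.01% of those of the library labelled brain. Leaving Kri1 out of the totals raised every log2 difference by 0.33, and scaling by the median of ratios over 6715 mRNAs raised it by 0.35. Scaling the pair by 17 pan-epithelial genes raised it by 0.74. The folds of these 17 genes as deposited ran from 0.096 for Vil1 to 1.67 for Cdh1, and the factor used was 0.599. Orders that turned only with pan-epithelial scaling rest on that factor. With this last setting all 9 mRNAs were higher under the label kidney, Muc13 by 1.05-fold, and 7 were past 2-fold, where 66.7% of all mRNAs were higher and 43.4% past 2-fold. The median log2 difference over all 12273 mRNAs was -0.05 as deposited.

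**Figure D3:**
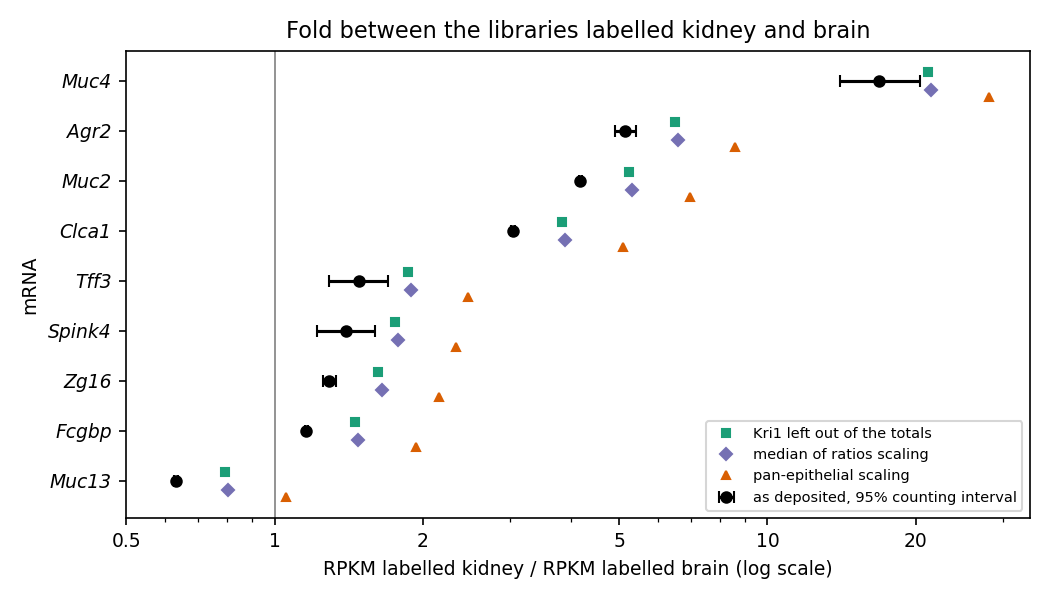
RPKM in the library labelled kidney over RPKM in that labelled brain, on a log scale, for each mucus mRNA (black, with 95% counting intervals) and under 3 other scalings. Folds run from 16.9 for Muc4 to 0.631 for Muc13, and only Muc13 crosses 1, with pan-epithelial scaling.

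The mucus mRNAs thus had another make-up in each library, which does not depend on scaling. Relative to Muc2 in the same library, Muc13 was at 2.10 times its RPKM under the label kidney and 13.9 times under the label brain. Fcgbp was at 0.865 and 3.11 times that of Muc2, and Zg16 at 0.895 and 2.89 times. Clca1 was at 3.97 and 5.43 times, and Agr2 was nearest to a constant ratio, at 0.758 and 0.614 times. Tff3 was at 0.0954 and 0.269 times, and Spink4 at 0.0896 and 0.268 times. Muc4, at 0.00655 and 0.00162 times, and Agr2 were the members whose ratio to Muc2 was higher under the label kidney.

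The codon content of the 9 CDSs, with their reads, sets their share of the translated amino acids. If reads are spread evenly along each CDS, the 9 CDSs held 9.0% of all translated codons in the library labelled kidney, but 22.2% of the Thr codons and 19.1% of the Cys codons. Muc2 alone held 15.4% of the Thr codons and 8.10% of the Cys codons there. In the library labelled brain the 9 CDSs held 4.73% of all codons, 9.23% of Thr codons and 11.9% of Cys codons, and Muc2 held 3.90% of Thr codons. The files give no position within the CDS, so the even spread is an assumption. Kri1 stays in the totals, with 22.1% of the reads under the label kidney and 2.01% under brain, so the bases of the shares differ. The shares also make no correction for reads lost at the repeats of Muc2, Muc4 and Muc13, which lie where Ser, Thr and Pro codons are dense.

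**Figure D4:**
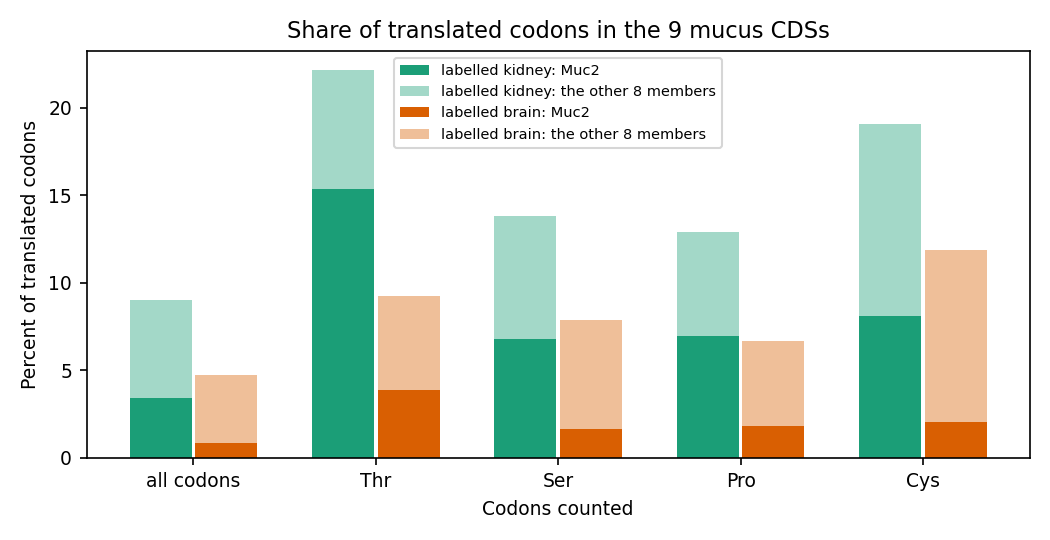
Percent of translated codons (vertical axis) that lie in the 9 mucus CDSs, for all codons and for Thr, Ser, Pro and Cys codons, in the libraries labelled kidney (green) and brain (orange). Muc2 is the dark part of each bar and the other 8 the light part, and the Thr bar of the library labelled kidney is the highest at 22.2%.

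Lists of other genes of the mucus pathway are set beside the shares over all mRNAs with RPKM over 1 in either library. Of these, 31.7% were past 2-fold toward the label kidney and 27.4% toward brain. With pan-epithelial scaling these shares were 43.4% and 14.5%. Among mRNAs with RPKM over 10 they were 18.2% and 32.7% as deposited. Most genes of the first list, called O-glycosylation here, encode enzymes that build O-glycans on mucins, and the counts are of the whole list. Of its 22 mRNAs over 1 RPKM in either library, 11 were past 2-fold toward the label kidney. Toward the label brain there was 1, and 10 were within 2-fold, with a median log2 difference of 1.09. These counts were 13, 1 and 8 without Kri1, and 16, 1 and 5 with pan-epithelial scaling. Galnt7, which acts early in O-glycosylation, was at 216 RPKM under the label kidney and 68.2 under brain. B3gnt7, a glycan-extending transferase, was at 138 and 7.18 RPKM. Fut2, which adds fucose to mucin glycans, was at 78.8 and 4.70 RPKM, and Gcnt3, a branching enzyme, at 108 and 46.2 RPKM. B4galnt2, which adds the last sugar of a glycan antigen and is also on the colonocyte list, was at 409 and 499 RPKM. That order turned when Kri1 was left out and under both other scalings.

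Of 17 mRNAs of the folding machinery and ER stress of secretory cells, 5 were past 2-fold toward the label kidney, 2 toward the label brain and 10 within 2-fold, with a median log2 difference of 0.18. With pan-epithelial scaling these counts were 8, 1 and 8, and the shares toward the label kidney lay near those over all mRNAs in either case. The disulfide isomerase Pdia6 was at 2096 and 1537 RPKM, the chaperone Hspa5 at 1502 and 1416, and Pdia4 at 459 and 445. P4hb was at 1144 RPKM under the label kidney and 1778 under brain, an order that turned with pan-epithelial scaling. Of 9 transcription factors of secretory cells, 4 were past 2-fold toward the label kidney and 0 toward brain, with a median of 0.16. As deposited, 31.7% and 27.4% of all mRNAs were. The counts of the 9 factors were the same under each other scaling. With pan-epithelial scaling 43.4% and 14.5% of all mRNAs were past 2-fold, so the share of the factors toward the label kidney lay near that over all mRNAs. Atoh1, which sets the secretory fate, was at 70.5 RPKM under the label kidney and 97.3 under brain, an order that turned with pan-epithelial scaling, and Xbp1, which expands the ER, was at 67.1 and 65.6. Spdef, which drives goblet cell maturation and is named after its values were seen, had 84 reads under the label kidney and was not listed under brain. Its density under the label kidney was 39.3 times that of 3 reads under brain, and the 95% counting interval of the fold started at 31.2.

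Of 9 ion and water transport mRNAs, among them Clca1, 7 were past 2-fold toward the label kidney and 1 toward brain, with a median of 1.61. The chloride and bicarbonate exchanger Slc26a3, which is also on the colonocyte list, was at 367 and 62.2 RPKM. The cotransporter Slc12a2 was at 476 and 209 RPKM. The bicarbonate cotransporter Slc4a4 was the 1 past 2-fold toward brain, at 33.2 and 81.4 RPKM, and was within 2-fold when Kri1 was left out. Best2, a channel of colonic goblet cells, had 725 reads under the label kidney and was not listed under brain. Its density under the label kidney was 339 times that of 3 reads under brain, and the 95% counting interval of the fold started at 275. Of 18 other mucus and lumen proteins outside the 9, 7 were past 2-fold toward the label kidney, 5 toward brain and 6 within 2-fold. Over all mRNAs the shares were 31.7% and 27.4% above 1 RPKM, and 18.2% and 32.7% above 10 RPKM. The highest of these 18 were Klk1, at 17498 RPKM under the label kidney and 3366 under brain, and Itln1, at 20.1 and 1367. Next were Dmbt1, at 1231 and 81.2 RPKM, and Lypd8, at 1131 and 253. Muc17, from the list of membrane mucins, was at 452 and 349 RPKM.

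**Figure D5:**
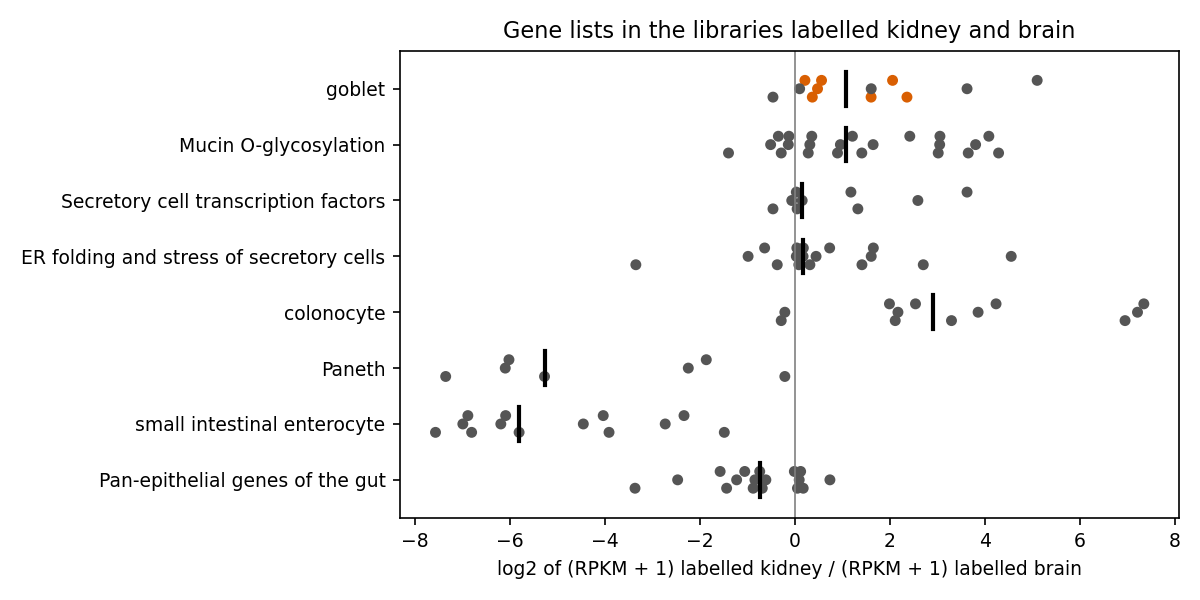
log2 of RPKM + 1 in the library labelled kidney over RPKM + 1 in that labelled brain, 1 point per mRNA with RPKM over 1 in either library, by gene list (rows), with members of the 9 in orange and the list median as a bar. The goblet, O-glycosylation and colonocyte lists have medians of 1.08, 1.09 and 2.92, and the enterocyte and Paneth lists -5.81 and -5.27.

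The lists of other cells moved with the same pair of libraries, and their part in the mucus values was not tested. All 13 enterocyte markers were past 2-fold toward the label brain (median log2 difference -5.81), and 10 of 12 colonocyte markers toward the label kidney (2.92). Of 17 pan-epithelial mRNAs, 6 were past 2-fold toward the label brain, 11 were within 2-fold and the median was -0.74. The mucus mRNAs lay between these lists, and no gene of the 9 reached the 191-fold difference of Apoa1, an enterocyte apolipoprotein, or the 226-fold difference of Car1, a carbonic anhydrase of the colon.

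In the other 4 libraries the mucus mRNAs were low, and all had reads except Muc4 under the label colon. In the library labelled heart they were at a median of 2.03% of their level under the label kidney, from 0.649% for Clca1 to 10.8% for Spink4. Under the label small intestine they were at a median of 1.40% of their level under the label brain, and 1.21% of that under kidney. Against the label brain they ran from 0.856% for Muc13 to 5.66% for Muc4, which had 5 reads there. Under the label lung the median was 0.158% of the level under the label kidney, with Muc4 the highest at 14.0%, and under the label colon it was 0.0673%. Against the label brain the medians were 3.45% for heart, 0.195% for lung and 0.208% for colon. The source of these reads was not tested.

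The mRNAs with the most similar pattern over the 6 libraries were taken from 4671 mRNAs outside the 9 with at least 50 RPKM in a library, by the Euclidean distance of centered log2(RPKM + 1). Nearest to Muc2 were Guca2a (distance 1.02), Prss32 (1.16), Lypd8 (1.65), Cyp2c55 (2.14) and Gpa33 (2.16), where the median distance of all was 10.6. Guca2a, a peptide that regulates intestinal fluid secretion, was at 4628 RPKM under the label kidney, 1026 under brain and 36.9 under heart. The nearest mRNA was Nrp2 for Muc4, Gpa33 for Muc13, Ceacam1 for Clca1, Gm5485 for Fcgbp, Clca3b for Zg16, Gcg for Tff3, Prss32 for Agr2 and Reg4 for Spink4. Muc4 was at 16.3 RPKM or less in every library, so the added 1 flattens its pattern. Nrp2 was at 17.3 RPKM or more in every library. Its distance from Muc4 was 1.52, where the median was 4.80, so this match says little. Gm5485 was at 690 RPKM under the label brain and 502 under kidney, an order that turned with pan-epithelial scaling. The distances are descriptions over 6 libraries.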

How the data were processed

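Per the labels, the libraries came from lysed tissue treated with RNase I, with 1 library per tissue. RPKM was deposited by the authors for each mRNA, and the build is GRCm39. The submitters' notes name Cutadapt and STAR without versions. The Methods describe alignment to 1 mRNA per gene (that of longest CDS), with multi-mapped reads left out, for macrophage libraries, and this was taken to hold here. Reads were recovered from RPKM and CDS length. CDSs and gene names came from GENCODE release M39 (GRCm39), where 18154 of 18437 mRNAs matched. Intervals are at 95%: exact Poisson for RPKM, Clopper-Pearson for folds, Wilson for shares. RPKM between mRNAs of the lists was compared above an RPKM of 1, with a pseudocount of 1 for medians. Further mRNAs were named from lists by a rule, namely up to 5 per list with the highest RPKM, among those over 50 RPKM in any library, and others are said to be named after seeing values. Members and lists were chosen with earlier results of these data known. Recovery and intervals were tested on simulated data. Python 3.11.15, numpy 2.4.6 and scipy 1.17.1 were used. The alternatives were other scalings, thinning to the lowest total, a pseudocount and unique windows.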

Additional observations from a re-analysis of the deposited data

How the results depend on the processing

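The count of mucus mRNAs higher under the label kidney than under brain, and the count with the highest density of the 6 under the label kidney, were both 8 of 9 under the alternatives run except pan-epithelial scaling, where both were 9. Pan-epithelial scaling for both counts and thinning for the second were added after seeing the data, as were the list counts and shares of all mRNAs under other scalings. Muc13 was the only reversal, with a fold of 1.05 toward the label kidney under pan-epithelial scaling. The median fold of the 9 mRNAs was 1.86 without Kri1 in the totals, 1.89 with median of ratios scaling and 2.47 with pan-epithelial scaling, against 1.48 as deposited. The share of reads under the label kidney was 11.5% without Kri1, 9.25% without mitochondrially encoded mRNAs and 5.51% without Muc2, and under the label brain 4.78%, 4.77% and 3.87%. Of 54 single folds recomputed, 21 stayed within the counting interval, 32 moved out of it and 1 was reversed. The fold of Muc4 ranged from 8.80 as a ratio of RPKM + 1 to 28.2 with pan-epithelial scaling. With unique windows in place of CDS length, Fcgbp and Zg16 exchanged places under the label kidney, and the order under brain was kept. Past 2-fold toward the label kidney were 31.7% of mRNAs with RPKM over 1 and 18.2% of those over 10. Toward the label brain these shares were 27.4% and 32.7%. Members at 1 to 3 reads in the libraries labelled colon and lung (Tff3, Agr2 and Spink4) have no order there. No paired analysis was possible because each tissue had 1 library.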
